A study of Mus musculus with 25 samples.

Results

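The genes described here are 39 interferon-stimulated genes, a set of antiviral and interferon-induced genes listed by symbol. They were found by exact symbol in the expression table of every library, and all 39 were present among the 22985 gene symbols kept. The study asked how the NF-kB family members p65 (gene Rela) and c-Rel (gene Rel) shape gene expression in regulatory T cells. RNA was sequenced from T cells of the spleen and lymph nodes of C57BL/6 mice, in 25 libraries of 14 groups.

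Among cells that were not stimulated there were 2 libraries of Treg labelled as lacking both p65 and c-Rel (DKO Treg), 2 of Treg lacking c-Rel (c-RelKO Treg), 3 of Treg lacking p65 (p65KO Treg), 4 of wild-type Treg (WT Treg) and 2 of wild-type conventional T cells (WT Tconv). The stimulated groups received 2 µg/ml each of antibodies to CD3 and CD28, with IL-2, for 3 h. They comprised 2 libraries of DKO Treg, 1 of c-RelKO Treg, 1 of p65KO Treg, 2 of WT Treg and 2 of WT Tconv. A further set of 4 stimulated libraries, 1 per group, came from cells given Cre recombinase as a TAT fusion protein: Treg with NFkB deletion, Treg with FoxP3 deletion, WT Treg and WT Tconv, the last pair being controls that carry no deletion. Neither the age of the mice nor the driver of Cre in the knockout mice is stated in the sources at hand. The labels do not say that replicates came from separate mice, so a p-value here reflects the scatter of these samples alone.

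Interferons are cytokines that put cells into an antiviral state. Type I interferons bind a receptor of Ifnar1 and Ifnar2 and activate the kinases Jak1 and Tyk2, and the complex ISGF3, which holds Stat2 and Irf9, then binds interferon-stimulated response elements (ISRE) in promoters. Interferon gamma, the product of Ifng made by activated T cells and NK cells, binds Ifngr1 and Ifngr2 and acts mainly on GAS elements, and many genes answer to both kinds of interferon. The products of the genes sense viral nucleic acid, degrade viral RNA, block viral translation and budding, or feed back on the signal.

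Promoters of the genes were read from RefSeq on the GRCm38.p6 build, as windows of 300 bases that run from 250 bases before to 50 bases after an annotated transcription start. A window was found for 28 of the 39 genes, and the other 11 were Usp18, Dhx58, Zbp1, Oas2, Mx1, Mx2, Parp9, Parp14, Rtp4, Ly6a and Ly6e. The ISRE core, searched on both strands as GAAA, any 2 bases and GAAA again, was present in 13 of the 28 genes (46.4%), against 3.99% of the 27025 genes with a window. These 13 were Bst2, Ddx58, Eif2ak2, Ifih1, Ifit1, Ifit3, Isg15, Oas1a, Oas1g, Oas3, Rsad2, Stat2 and Trim30a. The GAS core TTCNNNGAA was present in 8 of the 28 genes (28.6%), against 9.55% of all genes, and the kappa-B motif bound by NF-kB in 5 (17.9%), against 9.55%. A match of letters is a description and does not show that a factor binds there.

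The windows of 5 genes are printed below, on the strand of the gene, with ISRE matches in capitals. Ifih1 and Stat2 were chosen because they moved in opposite directions in stimulated DKO Treg, Isg15 and Ifit3 because they hold several matches, and Oas1a because its level was lower in DKO Treg. They lie on GRCm38.p6 at chr2:62646206-62646505 (minus strand) for Ifih1, chr10:128270248-128270547 (plus strand) for Stat2, chr4:156200769-156201068 (minus strand) for Isg15, chr19:34583279-34583578 (plus strand) for Ifit3 and chr5:120907476-120907775 (minus strand) for Oas1a.
Ifih1: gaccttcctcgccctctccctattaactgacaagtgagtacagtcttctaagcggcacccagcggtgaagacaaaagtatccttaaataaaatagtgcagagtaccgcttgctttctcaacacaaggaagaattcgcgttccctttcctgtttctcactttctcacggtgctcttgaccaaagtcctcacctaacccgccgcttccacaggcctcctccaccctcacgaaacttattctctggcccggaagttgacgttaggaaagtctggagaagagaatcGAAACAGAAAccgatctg
Stat2: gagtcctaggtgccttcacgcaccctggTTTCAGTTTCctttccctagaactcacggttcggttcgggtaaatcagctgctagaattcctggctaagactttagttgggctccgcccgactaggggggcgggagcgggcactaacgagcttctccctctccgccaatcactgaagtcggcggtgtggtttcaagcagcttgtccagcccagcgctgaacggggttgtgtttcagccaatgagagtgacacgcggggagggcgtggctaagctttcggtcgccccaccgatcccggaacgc
Isg15: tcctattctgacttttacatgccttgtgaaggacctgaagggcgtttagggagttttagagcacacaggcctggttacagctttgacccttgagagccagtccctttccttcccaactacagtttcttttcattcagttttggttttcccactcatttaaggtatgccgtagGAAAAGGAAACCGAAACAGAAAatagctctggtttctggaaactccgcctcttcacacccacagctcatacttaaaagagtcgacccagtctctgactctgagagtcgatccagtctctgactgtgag
Ifit3: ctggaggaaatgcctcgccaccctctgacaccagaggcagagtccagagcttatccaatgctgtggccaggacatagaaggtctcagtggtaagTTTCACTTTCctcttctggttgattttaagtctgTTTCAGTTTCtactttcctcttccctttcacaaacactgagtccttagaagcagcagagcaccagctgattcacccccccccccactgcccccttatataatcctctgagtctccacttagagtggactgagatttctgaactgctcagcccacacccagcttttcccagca
Oas1a: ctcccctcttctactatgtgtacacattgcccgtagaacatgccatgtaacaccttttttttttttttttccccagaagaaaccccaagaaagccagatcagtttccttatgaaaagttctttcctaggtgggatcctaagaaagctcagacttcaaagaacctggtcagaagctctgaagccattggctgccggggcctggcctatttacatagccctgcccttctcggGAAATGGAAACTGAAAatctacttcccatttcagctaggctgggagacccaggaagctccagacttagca
The match in Ifih1 lies after the transcription start, and those in the other 4 windows start before it. In Isg15 and in Oas1a the matches overlap and form 1 run of capitals. The window of Ifi47, one of the genes that changed most often below, holds no match to the ISRE core.

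Each library was represented by FPKM, a fragment count per gene scaled by transcript length and by sequencing depth. The confidence bounds in the tables imply 15.4 M to 52.8 M fragments per library. Rel was at 1.76 to 2.23 FPKM in all 7 libraries labelled as lacking c-Rel, against 27.5 to 271 FPKM in the 4 resting WT Treg libraries. Rela was at 56.3 to 79.8 FPKM in resting p65KO and DKO Treg, against 64.9 to 129.7 FPKM in WT Treg, and a value over the whole gene does not check a deletion of part of it. Foxp3, which defines Treg, was at 8.01 and 21.2 FPKM in DKO Treg, next to 129 to 351 FPKM in WT Treg and 0.541 and 0.927 FPKM in WT Tconv, so every DKO result below is from cells low in Foxp3. In c-RelKO Treg replicate 2 the summed FPKM was 20620 for 6 erythroid markers, 1704 for 11 myeloid markers and 232 for 7 B cell markers, and in p65KO Treg replicate 3 the myeloid sum was 752, against at most 631, 115 and 67.7 for the same 3 sums in WT Treg. The called genes and counts of the c-RelKO and p65KO comparisons are given with and without these libraries. In run 4 the libraries labelled stimulated and resting p65KO Treg had Irf8 at 15.5 and 69.5 FPKM and Il2ra at 443 and 595 FPKM, whereas stimulated and resting WT Treg of that run had Irf8 at 38.95 and 10.7 FPKM and Il2ra at 623 and 491 FPKM, so that pair goes against the direction its labels imply. Library numbers fall into 5 runs of consecutive numbers, which the labels do not call batches. Run 1 and run 2 hold 1 WT Treg and 1 p65KO Treg library each, run 3 and run 4 hold the other libraries outside the TAT-Cre set, and run 5 is the TAT-Cre set.

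By the median over all 25 libraries, 4 of the genes stood at 100 FPKM or more, 16 between 10 and 100, 14 between 1 and 10 and 5 under 1. The highest were Ly6e and Ly6a, which encode surface proteins of the Ly6 family, at medians of 321 and 217 FPKM, Samhd1, a phosphohydrolase that depletes nucleotides needed by viruses, at 248 FPKM, and Ifi47, an interferon-inducible GTPase, at 213 FPKM. The lowest were Rsad2 (viperin), the myxovirus resistance genes Mx1 and Mx2, Oas1g and Ifi44, at medians of 0.993, 0.935, 0.737, 0.766 and 0.196 FPKM. Ifi44 reached 1 FPKM in 1 library, WT Treg replicate 1 with 1.67 FPKM, and was the 1 gene of the 39 that did not pass the filter for testing, which was 1 FPKM in at least 2 libraries. The genes called in none of the comparisons below by the main test, which has 1 mean per group, were Isg20, Ifit1, Ifit2, Ifit3, Mx1, Oas1g, Oas3, Oasl1, Usp18, Ddx58, Dhx58, Xaf1, Bst2, Trim30a, Adar, Eif2ak2, Cmpk2, Herc6, Lgals3bp and Ly6e. With the run added as a block, each of these but Dhx58 was called in at least 1 comparison. Among the genes not called by the main test, Ddx58, which encodes the RNA sensor RIG-I, ran from 4.92 to 35.6 FPKM over the libraries with a median of 10.04, and Dhx58, its relative LGP2, from 1.69 to 19.5 FPKM with a median of 3.88. Bst2 (tetherin), which holds budding virus at the cell surface, ran from 30.9 to 148 FPKM with a median of 72.8. Eif2ak2, the kinase PKR that stops translation, ran from 4.55 to 27.2 FPKM with a median of 7.36, and Adar, an RNA editing enzyme, from 26.3 to 67.0 FPKM with a median of 43.4. Of these uncalled genes, WT Treg replicate 1 or p65KO Treg replicate 1, both of run 1, held the highest value of Ddx58, Dhx58, Eif2ak2, Isg20, Ifit1, Ifit2, Ifit3, Mx1, Oas1g, Oas3, Oasl1, Xaf1, Cmpk2, Herc6, Trim30a and Ly6e. Ifit3, Trim30a, Oas1a and Oas1g have close paralogues, and in the deposited table the entry of Adar overlaps that of Chrnb2, so the share of reads that belongs to each is uncertain. The sensor Ifih1, which was called, reached its highest value of 52.1 FPKM in stimulated DKO Treg replicate 2.

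**Figure D1:**
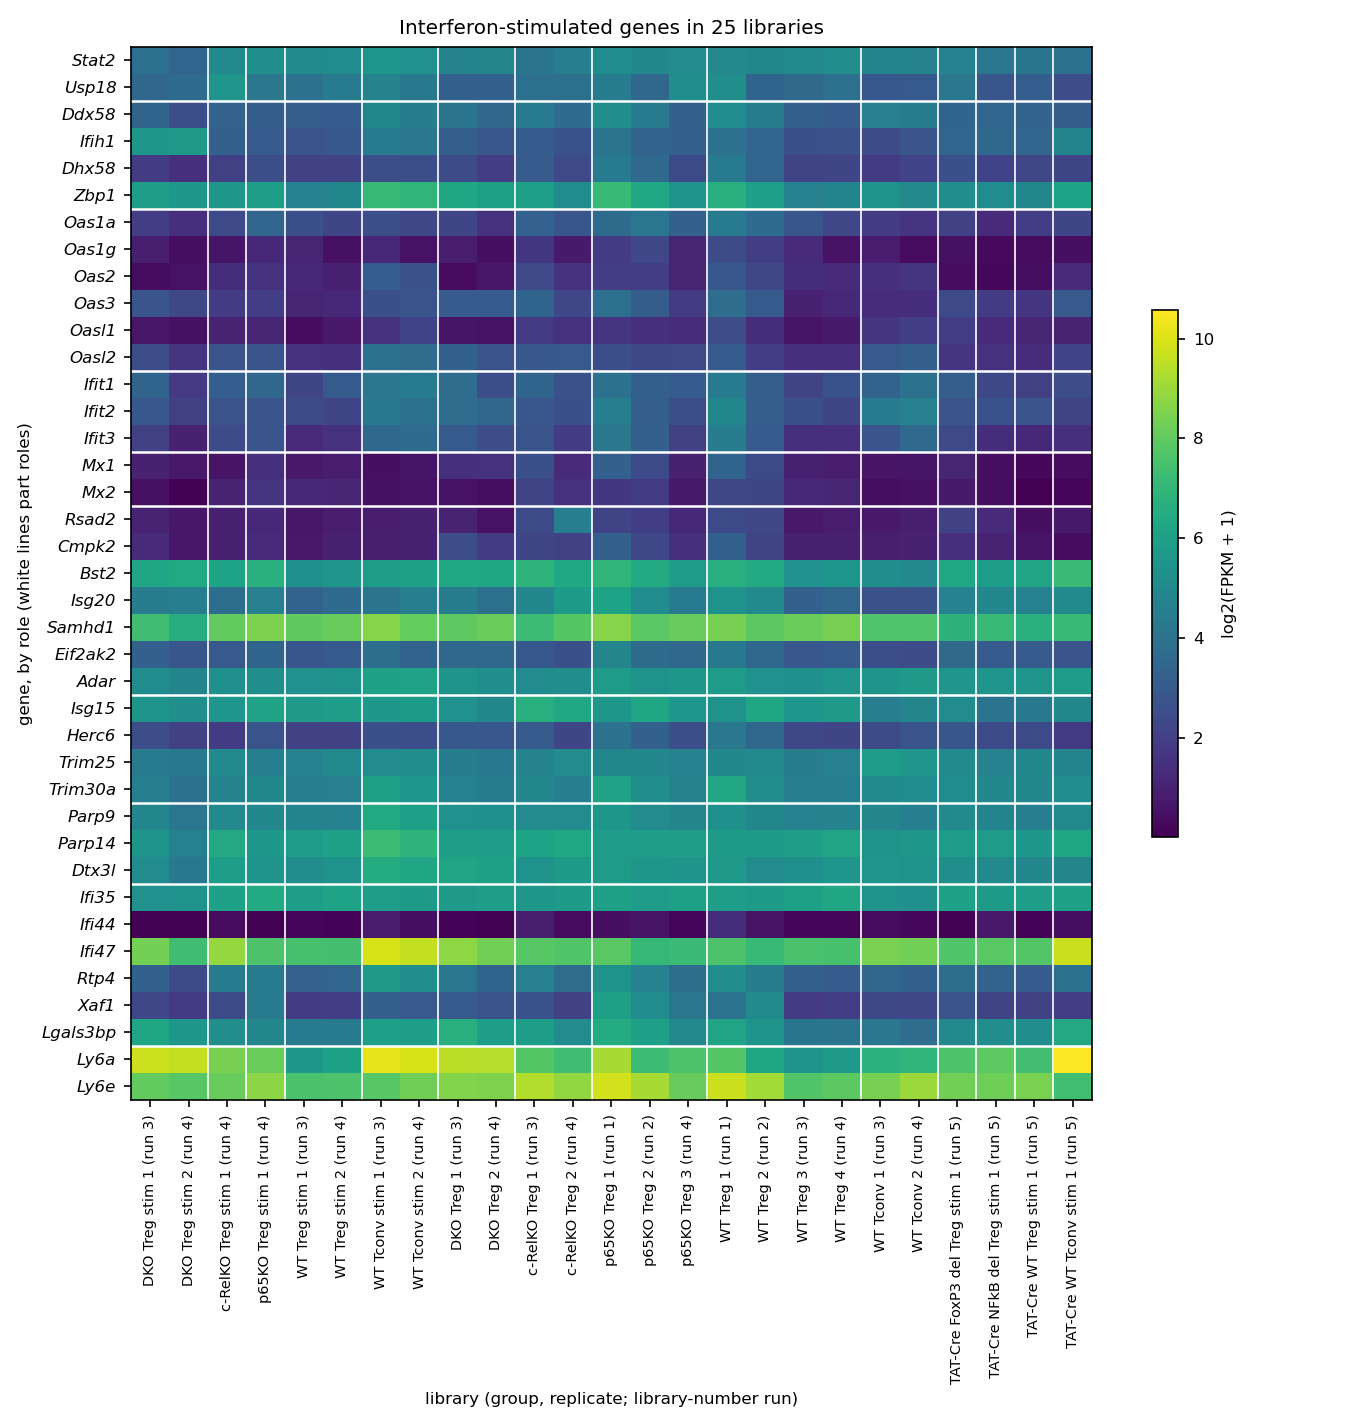
Level of each of the 39 genes in each of the 25 libraries, as log2(FPKM + 1), with genes in rows grouped by role and libraries in columns grouped by genotype and stimulation. Ly6a, Ly6e, Samhd1 and Ifi47 are the brightest rows, the Ifi44, Mx and most OAS rows are dim, and within WT Treg the libraries of runs 1 and 2 are brighter than those of runs 3 and 4.

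Within resting WT Treg, the level of most of the genes followed the run. Of the 39 genes, 30 (76.9%) were higher in both WT Treg libraries of runs 1 and 2 than in both of runs 3 and 4, against 40% of all 11533 genes compared, with a median log2 difference of 1.24 against 0.18. Ifit3, whose product joins complexes of IFIT proteins that bind viral RNA, was at 21.1 and 7.28 FPKM in the WT Treg libraries of runs 1 and 2 and at 1.77 and 1.82 FPKM in those of runs 3 and 4. Xaf1, an inhibitor of the anti-apoptotic protein XIAP, was at 15.2 and 31.8 FPKM in runs 1 and 2 and at 2.49 and 2.98 FPKM in runs 3 and 4. Ifi35, Parp14 and Stat2 were lower in both libraries of runs 1 and 2 than in both of runs 3 and 4 (7.69% of the genes, against 18.8% of all genes), and the other 6 did not separate. Marker sums of other cells moved with the run as well. The erythroid sum was 188 and 631 FPKM in the WT Treg libraries of runs 1 and 2 and 4.28 and 7.32 FPKM in those of runs 3 and 4, and the B cell sum was 67.7 and 12.9 FPKM and 5.68 and 6.19 FPKM. The sum of 5 T cell markers was 2097 and 1635 FPKM in runs 1 and 2 and 839 and 736 FPKM in runs 3 and 4, while the myeloid sum overlapped, at 115 and 23.9 FPKM and 9.90 and 30.9 FPKM. Of 5 plasmacytoid dendritic cell markers, Pacsin1 was at 36.9 and 27.9 FPKM in runs 1 and 2 and 8.86 and 9.05 FPKM in runs 3 and 4, whereas Siglech, at 2.52 and 0.0760 FPKM and 0.627 and 0.132 FPKM, overlapped between them. The part of other cells in the levels of the 39 genes was not tested. In bulk RNA, more cells of a type and more RNA per cell cannot be told apart.

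For this reason each comparison below is given by its values per library and by 2 fits of limma on log2(FPKM + 1): one with a mean per group (the group-mean fit), which is the main test, and one that adds the run as a block. A gene is called higher or lower where its Benjamini-Hochberg adjusted p over all 11532 genes tested is under 0.05. Differences are in log2 units of FPKM + 1, which understates changes of low genes, and ± gives the standard error. Counts of genes at a 2-fold difference use FPKM + 1 as well, so a low gene can differ 2-fold in FPKM and not be counted. Of the 38 genes tested, 18 were called in at least 1 of the 13 comparisons and 20 in none, and with the run block 37 were called in at least 1. Ifi47, Ifih1, Ly6a, Parp14 and Stat2 were each called in 5 comparisons, the most of any, and Dtx3l in 4. Several comparisons share libraries, so these counts are not independent of each other.

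Between stimulated and resting WT Tconv, 9 of the 38 genes (23.7%) were called higher in stimulated cells in the group-mean fit and none lower, against 11.9% of all genes called either way, 6.69% higher and 5.16% lower. The genes called were Ly6a, Rtp4, Ifih1, Parp14, Parp9, Dtx3l, Ifi47, Isg15 and Stat2. The median difference was 0.71 over the 38 genes and -0.09 over all genes.

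Ly6a, also known as Sca-1 and located on mm9 at chr15:74825307-74828318, was at 1149 and 988 FPKM in stimulated WT Tconv, against 107 and 121 FPKM in resting WT Tconv (log2 difference 3.22 ± 0.64, adjusted p = 0.00502). Parp14, a mono-ADP-ribosyltransferase at chr16:35832964-35871468, was at 150.4 and 117 FPKM in stimulated WT Tconv, against 40.97 and 47.1 FPKM in resting WT Tconv (log2 difference 1.57 ± 0.23, adjusted p = 0.000699). Parp9 was at 86.01 and 62.4 FPKM, against 27.4 and 22.6 FPKM (log2 difference 1.52 ± 0.29, adjusted p = 0.00374). In each of these genes both stimulated libraries stood above both resting ones. Dtx3l, the ubiquitin ligase that works in a complex with Parp9, was at 91.8 and 73.7 FPKM in stimulated WT Tconv, against 44.5 and 42.4 FPKM in resting WT Tconv (log2 difference 0.91 ± 0.25, adjusted p = 0.0313). Parp9 and Dtx3l lie head to head and their annotated entries overlap, and whether the counting used strand is not stated, so their shares of reads are uncertain.

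Of the cytosolic sensors, 1 was called in the group-mean fit. Ifih1, which encodes the double-stranded RNA sensor MDA5 and lies at chr2:62433850-62484312 on mm9, was at 20.5 and 17.9 FPKM in stimulated WT Tconv, against 4.60 and 5.99 FPKM in resting WT Tconv (log2 difference 1.69 ± 0.40, adjusted p = 0.0134). Zbp1, a sensor of Z-form nucleic acid, was at 141 and 121 FPKM, against 41.1 and 30.9 FPKM in resting WT Tconv, and was not called in the group-mean fit but was with the run block (log2 difference 1.85 ± 0.20). The groups did not overlap in either gene. Ifi47, at chr11:48900557-48910473 with an entry in the deposited table that overlaps that of Olfr56, was at 969 and 771 FPKM in stimulated WT Tconv, against 352 and 316 FPKM in resting WT Tconv (log2 difference 1.37 ± 0.32, adjusted p = 0.0134). Stat2, the ISGF3 subunit at chr10:127707632-127729905, was at 46.6 and 40.3 FPKM, against 26.2 and 25.7 FPKM (log2 difference 0.72 ± 0.17, adjusted p = 0.0161). Isg15, a ubiquitin-like modifier at chr4:155573533-155574927, was at 49.6 and 54.3 FPKM, against 21.99 and 27.2 FPKM (log2 difference 1.06 ± 0.28, adjusted p = 0.027). All 3 were higher in each stimulated library than in each resting one. Rtp4, a chaperone of receptors that also acts in antiviral defence, was at 52.2 and 37.3 FPKM in stimulated WT Tconv, against 10.4 and 8.92 FPKM in resting WT Tconv (log2 difference 2.09 ± 0.64, adjusted p = 0.0471).

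No IFIT or Mx gene was called in either fit. Ifit1 was at 17.4 and 18.98 FPKM in stimulated WT Tconv, against 9.52 and 15.1 FPKM in resting WT Tconv, and Ifit3 was at 10.9 and 12.3 FPKM, against 6.05 and 11.3 FPKM. Both were above the resting level of their run in both runs, whereas Ifit2 was below it. Ifit2 was at 18.3 and 14.1 FPKM in stimulated WT Tconv, against 20.2 and 23.3 FPKM in resting WT Tconv. Mx1 was at 0.357 and 0.520 FPKM in stimulated WT Tconv, against 0.512 and 0.535 FPKM in resting WT Tconv. With the run block, 21 of the 38 genes were called higher and 2 lower (60.5% in all), against 43.1% of all genes called either way, and the 2 lower were Ly6e (log2 difference -0.63 ± 0.21 with the run block) and the ubiquitin ligase Trim25 (log2 difference -0.51 ± 0.16 with the run block). In both run 3 and run 4, 11 of the 38 genes were at least 2-fold higher in stimulated than in resting WT Tconv and none 2-fold lower, against 4.44% and 2.53% of all genes. With the run block, 7 of the 13 genes with an ISRE match and 7 of the 14 without were called higher, a description with no test. Over all genes that fit called 17.3% higher and 25.8% lower. Of the 5 plasmacytoid dendritic cell markers, Pacsin1 was at 18.4 and 24.95 FPKM in stimulated WT Tconv, against 10.2 and 13.4 FPKM in resting WT Tconv. Siglech was at 1.68 and 0.504 FPKM in stimulated WT Tconv, against 1.69 and 0.785 FPKM in resting WT Tconv, and was thus not above the resting level of its run in either run. Leaving out any 1 of the 4 libraries left 1 to 5 calls: 1 without stimulated WT Tconv replicate 1, 5 without its replicate 2, 3 without resting WT Tconv replicate 1 and 2 without its replicate 2. Parp14 was called in all 4 cases (adjusted p from 0.0047 to 0.0145, limma), Ly6a in 3, Parp9 in 2, Ifi47 and Stat2 in 1, and Rtp4, Ifih1, Isg15 and Dtx3l in none.

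In WT Treg the same stimulation was followed by no called change. In limma's group-mean fit, 0 of the 38 genes and 0 of 11532 genes overall (0%) had an adjusted p under 0.05 between stimulated and resting WT Treg. None of the 38 genes had an unadjusted p under 0.05, against 2.70% of all genes, and the run block also gave 0 calls. Within runs 3 and 4, none of the 38 genes was 2-fold higher or lower in both, against 0.0694% and 0.0173% of all genes, and the median difference was -0.01 in run 3 and -0.02 in run 4. Ly6a was at 49.1 and 64.1 FPKM in stimulated WT Treg, against 44.2 and 51.8 FPKM in run-matched resting WT Treg. Ifih1 was at 5.57 and 6.52 FPKM in stimulated WT Treg, against 4.99 and 5.23 FPKM in the same runs. Parp14 was at 57.4 and 65.8 FPKM, against 57.7 and 70.6 FPKM. In these 3 genes the stimulated and resting WT Treg libraries of a run lay close together, where those of WT Tconv lay far apart. The median difference over the 38 genes was -0.58 in the group-mean fit, whose resting WT Treg include runs 1 and 2, and -0.08 with the run block. A low count here does not show that the genes did not respond.

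**Figure D2:**
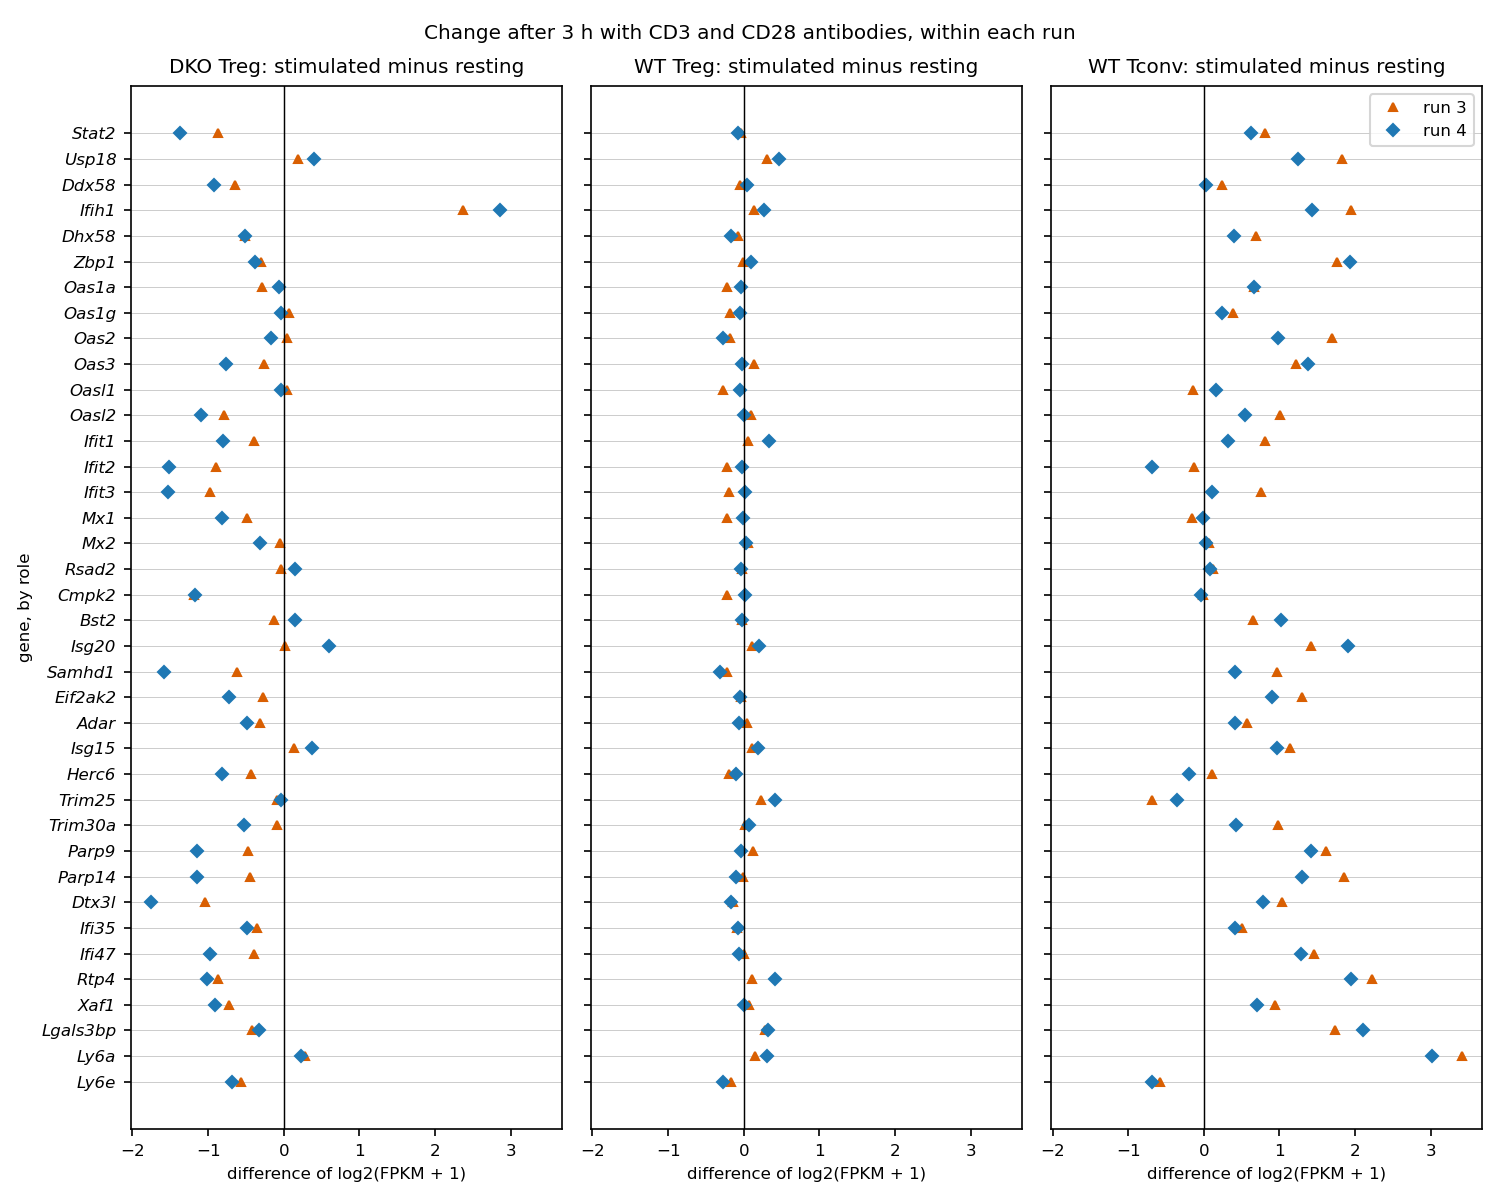
Difference between stimulated and resting cells of the same run, in log2(FPKM + 1), for the 38 genes tested, in rows by role and in panels for DKO Treg, WT Treg and WT Tconv, with 1 point per run. Most DKO Treg points lie below 0 while Ifih1 stands far above it, the WT Treg points gather around 0, and most WT Tconv points lie above 0 with Ly6a farthest out.

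Setting the stimulated cells side by side, 9 of the 38 genes (23.7%) were called lower in stimulated WT Treg than in stimulated WT Tconv and none higher, against 6.64% of all genes called either way, 3.62% higher and 3.02% lower. They were Ly6a, Oasl2, Ifi47, Zbp1, Oas2, Ifih1, Parp9, Parp14 and Dtx3l. The difference was -4.22 ± 0.64 for Ly6a (adjusted p = 0.00122), -2.27 ± 0.32 for Ifi47 (adjusted p = 0.000765) and -2.26 ± 0.59 for Zbp1 (adjusted p = 0.0326, limma). Oasl2, an OAS family protein with ubiquitin-like repeats, was at 1.95 and 1.76 FPKM in stimulated WT Treg, against 14.8 and 12.7 FPKM in stimulated WT Tconv (log2 difference -2.37 ± 0.42, adjusted p = 0.00389). Oas2, an enzyme that makes the activator of RNase L, was at 1.32 and 0.997 FPKM, against 8.09 and 5.18 FPKM (log2 difference -1.80 ± 0.47, adjusted p = 0.0327). Ifi47 was at 183 and 174 FPKM, against 969 and 771 FPKM. The groups did not overlap in any of these genes. In both runs 15 of the 38 genes were at least 2-fold lower in FPKM + 1 in stimulated WT Treg than in stimulated WT Tconv and none 2-fold higher, against 2.53% and 4.61% of all genes. In FPKM itself the low gene Mx2 was over 2-fold higher in both runs.

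Adding the run block, 1 gene was called higher and 23 lower between stimulated WT Treg and stimulated WT Tconv (63.2% in all), against 37% of all genes. The 1 higher was Mx2, a GTPase that in rodents acts in the cytoplasm, at 1.36 and 1.21 FPKM in stimulated WT Treg, against 0.401 and 0.431 FPKM in stimulated WT Tconv (log2 difference 0.69 ± 0.17 with the run block). Leaving out 1 of the 4 libraries left 3 to 5 calls: 4 without either stimulated WT Treg library, 3 without stimulated WT Tconv replicate 1 and 5 without its replicate 2. Ly6a, Oasl2 and Ifi47 were called each time, with adjusted p at most 0.0459 (limma), Parp9 and Parp14 in 2 of the 4 cases, and Zbp1, Oas2, Ifih1 and Dtx3l in none.

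The difference between the responses was tested as an interaction, the stimulation response of WT Treg minus that of WT Tconv. It was called for 1 of the 38 genes, against 1.03% of all genes called either way, 0.0867% positive and 0.945% negative, and that gene was Parp14 (log2 difference -1.50 ± 0.30, adjusted p = 0.0363). The median interaction was -1.25 over the 38 genes and -0.03 over all genes in the group-mean fit, whose resting WT Treg include runs 1 and 2. With the run block it was nearer 0, at -0.747 over the 13 genes with an ISRE match and -0.717 over the 14 without. Within runs 3 and 4 the median response of the 38 genes was -0.025 in WT Treg and 0.711 in WT Tconv. The run block gave 16 called negative and 1 positive (44.7% in all), against 16% of all genes. The Parp14 call was kept in 2 of 10 omissions of 1 library, with adjusted p from 0.0306 to 0.246: it held without resting WT Treg replicate 1 and without resting WT Treg replicate 3 and was lost without any other, and without the 2 libraries high in markers of other cells, neither of which is in the contrast, its adjusted p was 0.0582. The number of calls was 3 without resting WT Treg replicate 1, 2 without its replicate 3 and 0 without any of the other 8 libraries.

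**Figure D3:**
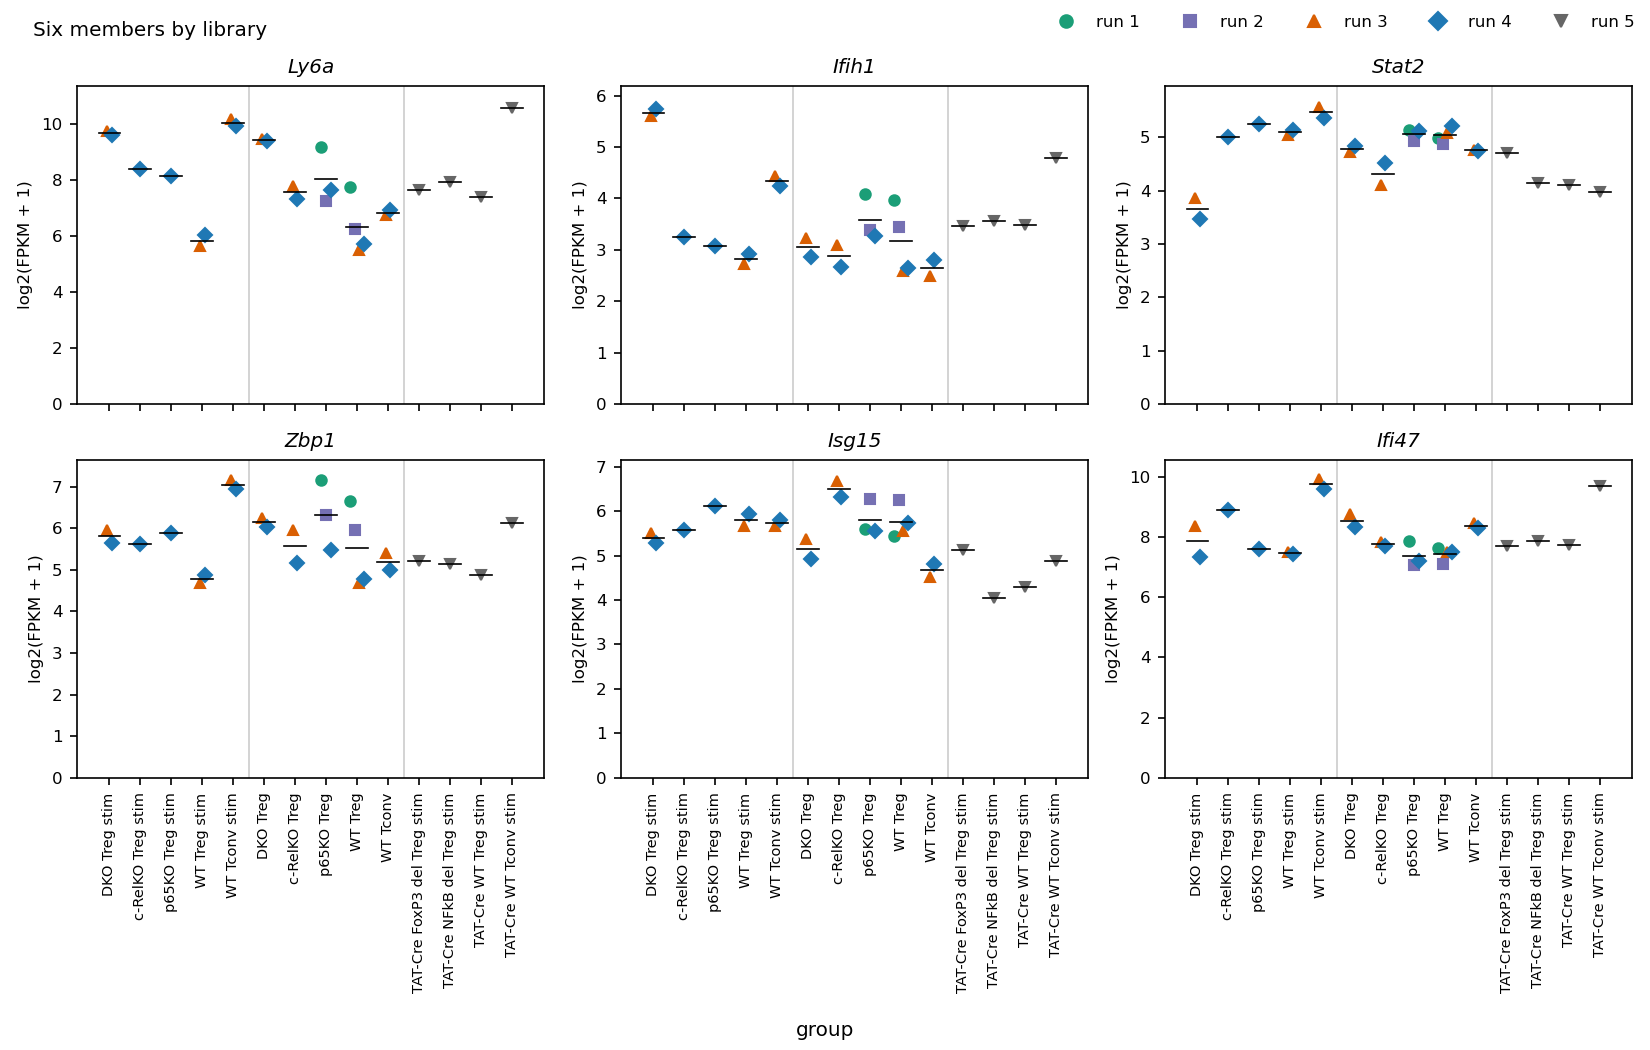
Level of Ly6a, Ifih1, Stat2, Zbp1, Isg15 and Ifi47 in each library, as log2(FPKM + 1), by group, with points coloured by run and a horizontal line at the mean of each group. Ly6a is high in DKO Treg and stimulated WT Tconv, Ifih1 is high in stimulated DKO Treg, and Stat2 is lowest in stimulated DKO Treg.

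Between resting cells, 4 of the 38 genes were called higher in WT Treg than in WT Tconv and 2 lower (15.8% in all), against 12.6% of all genes called either way, 7.03% higher and 5.53% lower, and that share is close to the background. Isg15 was at 42.2, 75.5, 45.97 and 52.3 FPKM in WT Treg, against 21.99 and 27.2 FPKM in WT Tconv (log2 difference 1.07 ± 0.25, adjusted p = 0.0113). Ifi35, which interacts with Nmi, was at 58.9, 53.8, 63.99 and 73.7 FPKM, against 41.01 and 39.3 FPKM (log2 difference 0.62 ± 0.13, adjusted p = 0.00777). In both genes every WT Treg library was above both WT Tconv libraries. The other 2 higher genes were Mx2 (log2 difference 1.25 ± 0.36, adjusted p = 0.0385) and the oligoadenylate synthetase gene Oas1a (log2 difference 1.54 ± 0.46, adjusted p = 0.041). Mx2 was at 3.78, 3.68, 1.26 and 1.17 FPKM in WT Treg of runs 1 to 4, against 0.332 and 0.397 FPKM in WT Tconv. Oas1a was at 19.3, 12.1, 6.16 and 3.84 FPKM, against 2.73 and 2.04 FPKM. With the run block and without the 2 libraries high in markers of other cells, the differences were 0.70 for Mx2 and 0.81 for Oas1a. Oas1a has the near-identical neighbour Oas1g, so the split of reads between them is uncertain. Trim25, the ubiquitin ligase that acts on RIG-I, was at 30.1, 31.9, 20.9 and 23.3 FPKM in WT Treg, against 54.9 and 45.04 FPKM in WT Tconv (log2 difference -0.90 ± 0.18, adjusted p = 0.00498). Ifi47 was at 196, 137, 183 and 181 FPKM in WT Treg, against 352 and 316 FPKM in WT Tconv (log2 difference -0.95 ± 0.28, adjusted p = 0.0396). These 2 genes were lower in every WT Treg library.

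With the run block 7 genes were called higher in WT Treg than in WT Tconv and 10 lower (44.7% in all), against 45.8% of all genes, 19.5% higher and 26.4% lower. Ifit2, which binds AU-rich RNA, was the lowest of these (log2 difference -1.997 ± 0.20 with the run block), at 5.10 and 3.72 FPKM in the WT Treg libraries of runs 3 and 4, against 20.2 and 23.3 FPKM in WT Tconv. In the WT Treg libraries of runs 1 and 2 it was at 27.9 and 8.26 FPKM, so the groups overlap when all runs are pooled. Ly6a was likewise not called in the group-mean fit but was lower with the run block (log2 difference -1.07 ± 0.22). Both runs had 7 of the 38 genes at least 2-fold lower in FPKM + 1 in WT Treg than in WT Tconv and none 2-fold higher, against 4.06% and 5.27% of all genes. In FPKM itself the low gene Mx2 was over 2-fold higher in both runs. Leaving out 1 library moved the count between 0 and 8: it was 0 without WT Tconv replicate 1, 1 without WT Tconv replicate 2, 3 without WT Treg replicate 2 and 6 to 8 without any other. Of the 6 cases, Trim25 kept its call in 5, Isg15 and Ifi35 in 4, Oas1a in 3, Mx2 in 2 and Ifi47 in 1.

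DKO Treg differed from WT Treg at some of the genes, led by Ly6a and in both directions. In the group-mean fit the share called was smaller than among all genes. In the group-mean fit 4 of the 38 genes were called higher in DKO Treg and 3 lower (18.4% in all), against 33% of all genes called either way, 19.4% higher and 13.6% lower. Ly6a was at 704 and 666 FPKM in DKO Treg, against 217, 74.8, 44.2 and 51.8 FPKM in WT Treg (log2 difference 3.11 ± 0.55, adjusted p = 0.000809). Ifi47 was at 435 and 319 FPKM in DKO Treg, against 196, 137, 183 and 181 FPKM in WT Treg (log2 difference 1.10 ± 0.28, adjusted p = 0.00797). Both DKO libraries were above all 4 WT libraries in both genes. Oasl2 was at 8.90 and 5.75 FPKM in DKO Treg, against 7.16, 2.78, 1.77 and 1.76 FPKM in WT Treg (log2 difference 1.06 ± 0.37, adjusted p = 0.0386), where WT Treg replicate 1 stood above DKO Treg replicate 2. Dtx3l was the other gene called higher (log2 difference 0.67 ± 0.22, adjusted p = 0.0291).

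The 3 genes that fell were Oas2, Oas1a and Mx2. Oas2 was at 0.254 and 0.644 FPKM in DKO Treg, against 6.30, 3.86, 1.63 and 1.43 FPKM in WT Treg (log2 difference -1.43 ± 0.40, adjusted p = 0.0147). Oas1a was at 3.74 and 1.86 FPKM, against 19.3, 12.1, 6.16 and 3.84 FPKM (log2 difference -1.41 ± 0.46, adjusted p = 0.0291). Mx2 was at 0.466 and 0.318 FPKM, against 3.78, 3.68, 1.26 and 1.17 FPKM (log2 difference -1.22 ± 0.36, adjusted p = 0.02). In all 3 genes both DKO libraries were below all 4 WT libraries. With the run block and without the 2 libraries high in markers of other cells, their differences were smaller, at -0.815 for Oas2, -0.678 for Oas1a and -0.673 for Mx2. Oas3, of the same family as Oas1a and Oas2, was at 7.40 and 7.30 FPKM in DKO Treg, against 12.95, 7.03, 0.982 and 1.38 FPKM in WT Treg, and was not called in the group-mean fit but was higher with the run block (log2 difference 1.80 ± 0.28).

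In the fit with the run block, 16 genes were called higher in DKO Treg than in WT Treg and 5 lower (55.3% in all), against 61.2% of all genes, 37.1% higher and 24.1% lower. Lgals3bp, a secreted glycoprotein that binds galectins, was at 100.2 and 59.5 FPKM in DKO Treg, against 16.3 and 15.7 FPKM in run-matched WT Treg (log2 difference 2.06 ± 0.23 with the run block). Zbp1 was at 74.7 and 64.6 FPKM in DKO Treg, against 24.7 and 26.6 FPKM in the same runs (log2 difference 1.32 ± 0.19 with the run block). In both runs 7 genes were at least 2-fold higher in FPKM + 1 in DKO Treg, which were Ly6a, Lgals3bp, Oas3, Oasl2, Zbp1, Ifit2 and Ifit3. None was 2-fold lower in FPKM + 1, against 10.6% of all genes higher and 5.79% lower. In FPKM itself the low genes Oas2 and Mx2 were over 2-fold lower in both runs, and Cmpk2 over 2-fold higher. The median difference over the 38 genes was -0.16 in the group-mean fit and 0.53 with the run block, against 0.06 and 0.12 over all genes, so the direction of the middle gene depends on whether WT Treg of runs 1 and 2 is in the baseline. Leaving out 1 library gave 1 call without DKO Treg replicate 1, 2 without its replicate 2, 4 without WT Treg replicate 2 and 5 to 9 without any other. Of the 6 cases, Ly6a kept its call in 6, Ifi47 in 5, Mx2 and Oas2 in 4, Oas1a in 3, Dtx3l in 2 and Oasl2 in 1. Of 6 NK and CD8 T cell markers, Gzma was at 26.6 and 57.2 FPKM in DKO Treg, against 0.473 to 2.997 FPKM in WT Treg, and Ncr1 at 0.986 and 1.31 FPKM, against at most 0.439 FPKM. The other 4 overlapped between the groups, Cd8a at 0.0712 and 0.194 FPKM in DKO Treg and 0.149 to 2.77 FPKM in WT Treg, and Cd8b1 at 9.52 and 5.64 FPKM in DKO Treg and 7.60 to 15.02 FPKM in WT Treg.

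Loss of c-Rel alone was followed by 1 called increase and 1 called decrease, against 10.6% of all genes called either way, 1.62% higher and 8.98% lower. Stat2 was at 16.1 and 21.8 FPKM in c-RelKO Treg, against 30.7, 28.2, 33 and 36.1 FPKM in WT Treg (log2 difference -0.73 ± 0.15, adjusted p = 0.00712). Both c-RelKO libraries were below all 4 WT libraries, and without the 2 libraries high in markers of other cells the difference was -0.94. Over all omissions of 1 library its adjusted p ran from 0.00776 to 0.145 (limma), and the call was lost without c-RelKO Treg replicate 1. Rsad2, whose product makes a chain-terminating nucleotide and which lies at chr12:27127608-27141317, was at 4.28 and 21.9 FPKM in c-RelKO Treg, against 4.30, 3.76, 0.663 and 0.803 FPKM in WT Treg (log2 difference 1.90 ± 0.55, adjusted p = 0.0405). Its value of 21.9 FPKM came from replicate 2, the library with the erythroid, myeloid and B cell transcripts, and without that library and p65KO Treg replicate 3 the difference was 0.84 and not called. Without replicate 2 the 4.28 FPKM of replicate 1 lies within the WT Treg range. Over omissions of 1 library the adjusted p of Rsad2 ran from 0.0112 to 0.461 (limma), and the call was lost without c-RelKO Treg replicate 2, WT Treg replicate 3 or WT Treg replicate 4.

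The fit with the run block called 17 genes higher in c-RelKO Treg than in WT Treg and 3 lower (52.6%), against 41.6% of all genes, 15.8% higher and 25.9% lower. Without the 2 libraries high in markers of other cells it called 20 higher and 3 lower, against 41.4% of all genes, 19.2% higher and 22.2% lower, and c-RelKO Treg is then replicate 1 alone, taken to vary like the other groups. In both runs 31 of the 38 genes were higher in c-RelKO Treg and 4 lower, against 33.5% of all genes higher, with a median over the 38 genes of 0.57, against -0.05 over all genes. In both runs 7 genes were at least 2-fold higher, against 1.79% of all genes: Ly6a, Isg20, Oas3, Oasl2, Rsad2, Lgals3bp and Cmpk2. Ly6a was at 219 and 161 FPKM in c-RelKO Treg, against 44.2 and 51.8 FPKM in run-matched WT Treg (log2 difference 1.79 ± 0.22 with the run block). Isg15 was at 101 and 79.2 FPKM, against 46.0 and 52.3 FPKM (log2 difference 0.89 ± 0.17 with the run block). Isg20, a 3' to 5' exonuclease, was at 29.03 and 54.1 FPKM, against 8.78 and 10.4 FPKM (log2 difference 1.84 ± 0.25 with the run block). Without the 2 libraries the run-block differences of these 3 genes were 2.20, 1.049 and 1.56, and all 3 were called. In run 3, which holds replicate 1, 17 of the 38 genes were at least 2-fold higher in c-RelKO Treg and none 2-fold lower, against 6.36% and 4.79% of all genes. In replicate 1 the summed myeloid markers were at 102 FPKM, against 9.90 FPKM in WT Treg replicate 3 of the same run, and their part in the difference was not tested. The 3 genes called lower with the run block were Stat2 (log2 difference -0.82 ± 0.14), Samhd1 (log2 difference -0.73 ± 0.24 with the run block) and Ifi35 (log2 difference -0.38 ± 0.10 with the run block). Leaving out 1 library in the group-mean fit gave 4 calls without WT Treg replicate 1, 3 without WT Treg replicate 2 and 1 without any other.

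Loss of p65 alone was followed by 0 called changes among the 38 genes, against 0.0434% of all genes called either way, 0.0347% higher and 0.00867% lower. Adding the run block, 4 genes were called higher and none lower, against 8.82% of all genes, 7.08% higher and 1.74% lower. Ly6a was at 583, 151 and 199 FPKM in p65KO Treg, against 217, 74.8 and 51.8 FPKM in run-matched WT Treg (log2 difference 1.53 ± 0.18 with the run block). Xaf1 was at 63.7, 34.6 and 16.9 FPKM in p65KO Treg, against 15.2, 31.8 and 2.98 FPKM in the same runs (log2 difference 1.56 ± 0.32 with the run block). Ly6a was higher in p65KO Treg by 2-fold or more in each of the 3 runs, whereas Xaf1 was about level in run 2. The other 2 were Zbp1 (log2 difference 0.59 ± 0.15 with the run block) and Lgals3bp (log2 difference 0.67 ± 0.19 with the run block). Without the 2 libraries high in markers of other cells, of which p65KO Treg replicate 3 is 1, the run block called Ly6a alone, with a difference of 1.21, against 1.04% of all genes, 0.875% higher and 0.166% lower, and the differences of 1.06 for Xaf1, 0.42 for Zbp1 and 0.39 for Lgals3bp were not called. In all 3 runs 11 of the 38 genes were higher in p65KO Treg and 2, Mx2 and Oas2, lower, against 32.5% and 15.3% of all genes, and so no larger a share than among all genes.

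**Figure D4:**
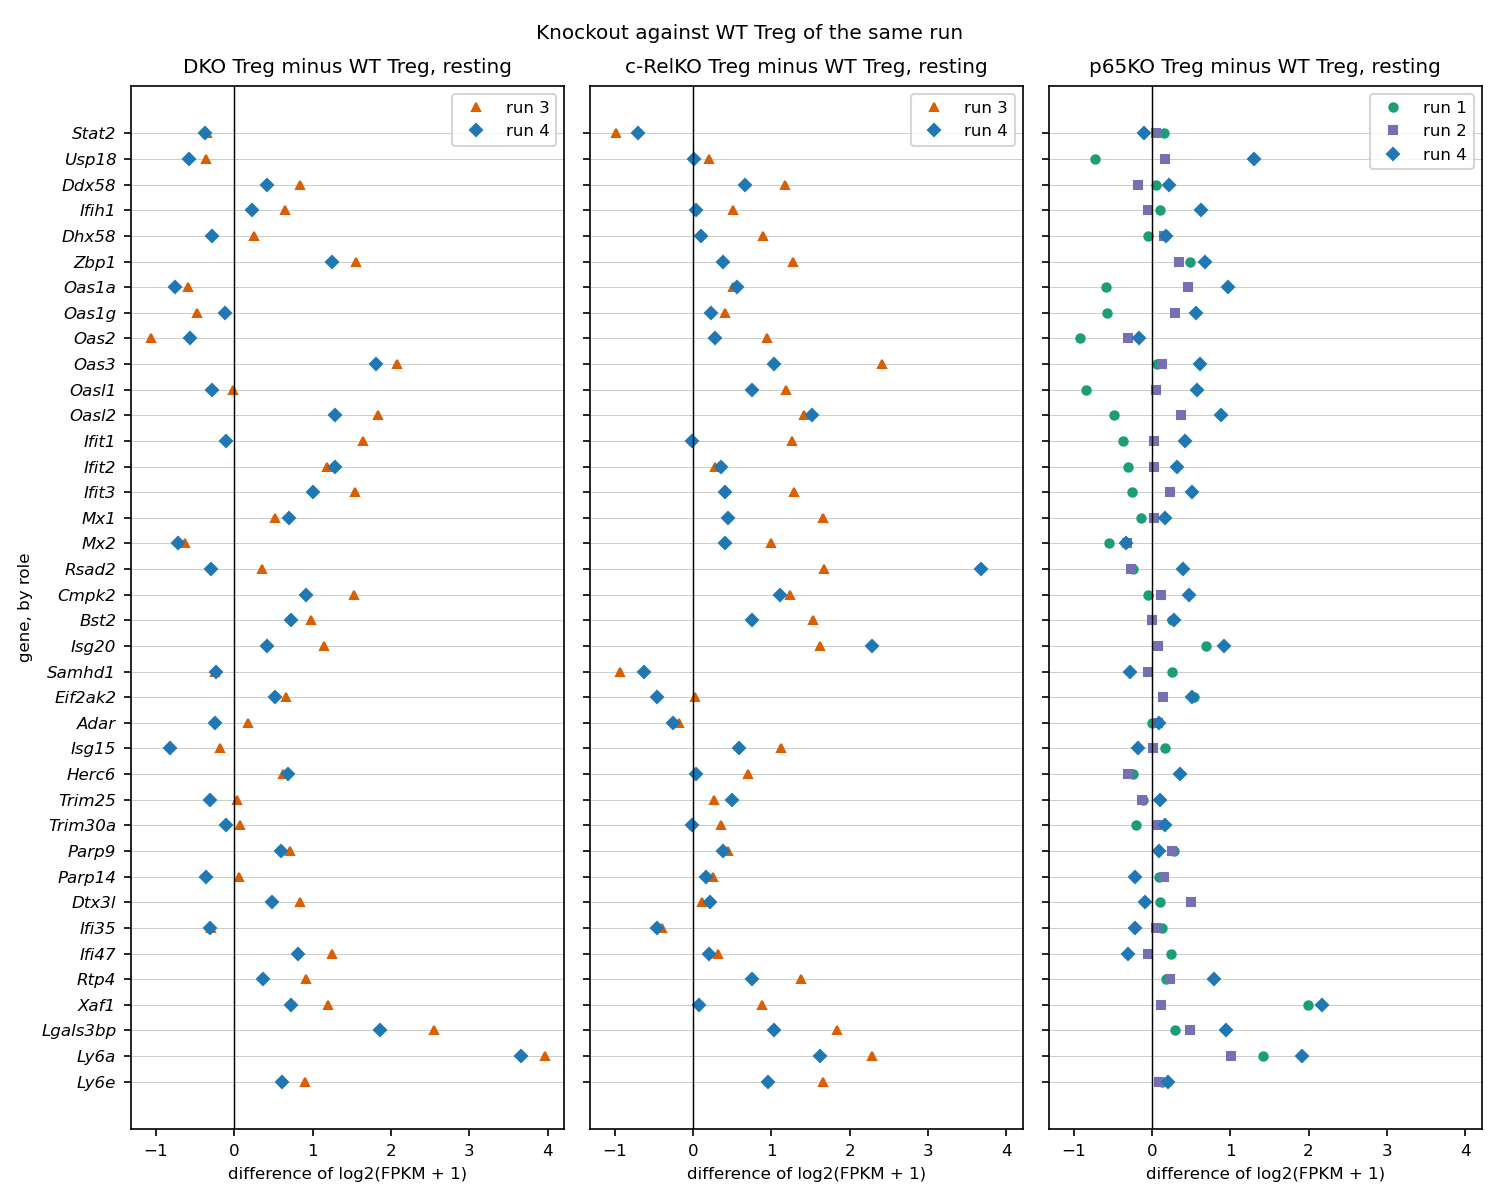
Difference between knockout Treg and WT Treg of the same run, in log2(FPKM + 1), for the genes tested, in rows by role and in panels for DKO Treg, c-RelKO Treg and p65KO Treg, with 1 point per run. Ly6a lies above 0 in every run of all 3 knockouts, Stat2 lies below 0 in DKO Treg and c-RelKO Treg, and most other genes lie above 0 in c-RelKO Treg.

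The knockouts were also compared with each other. Between DKO Treg and c-RelKO Treg, which differ in p65, 1 gene was called higher in DKO Treg and 4 lower (13.2% in all), against 25.5% of all genes called either way, 19.5% higher and 5.91% lower. Isg15 was at 40.3 and 29.1 FPKM in DKO Treg, against 101 and 79.2 FPKM in c-RelKO Treg (log2 difference -1.36 ± 0.28, adjusted p = 0.00437). Oas2 was at 0.254 and 0.644 FPKM, against 4.03 and 1.94 FPKM (log2 difference -1.42 ± 0.47, adjusted p = 0.039). Mx2 was at 0.466 and 0.318 FPKM, against 3.52 and 1.89 FPKM (log2 difference -1.38 ± 0.42, adjusted p = 0.0292). In these genes both DKO libraries were below both c-RelKO libraries, whereas Ly6a was above (log2 difference 1.86 ± 0.64, adjusted p = 0.0465). Rsad2 was the other lower gene (log2 difference -2.64 ± 0.63, adjusted p = 0.00944), and without the 2 libraries high in markers of other cells neither Rsad2, at -1.58, nor Ly6a, at 1.64, was called, and 1 gene was called higher and 3 lower. Leaving out 1 library left 0 calls without DKO Treg replicate 2 and 2 calls without any of the other 3. Of the 4 cases, Isg15 kept its call in 3, Rsad2 in 2, and Ly6a, Mx2 and Oas2 in none.

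Between DKO Treg and p65KO Treg, which differ in c-Rel, 1 gene was called higher in DKO Treg and 1 lower (5.26% in all), against 18.3% of all genes called either way, 8.75% higher and 9.54% lower. Ifi47 was at 435 and 319 FPKM in DKO Treg, against 232, 133 and 147 FPKM in p65KO Treg (log2 difference 1.17 ± 0.29, adjusted p = 0.0142). Oas1a was at 3.74 and 1.86 FPKM, against 12.5, 16.99 and 8.45 FPKM (log2 difference -1.84 ± 0.48, adjusted p = 0.0173). Neither gene overlapped between the groups. Leaving out p65KO Treg replicate 3, the library high in myeloid markers, gave 6 calls, leaving out p65KO Treg replicate 2 or either DKO library gave 1, and leaving out p65KO Treg replicate 1 gave 3. Ifi47 and Oas1a each kept their call in 3 of these 5 cases. Without the 2 libraries high in markers of other cells, Ifi47 at 1.08 and Oas1a at -2.08 were both called, and with the run block added Oas1a, at -0.61, was not.

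Stimulated DKO Treg set Ifih1 apart from the other genes. Between stimulated and resting DKO Treg, 1 of the 38 genes was called higher and 4 lower (13.2% in all), against 9.99% of all genes called either way, 3.86% higher and 6.13% lower. Ifih1 was at 47.3 and 52.1 FPKM in stimulated DKO Treg, against 8.36 and 6.30 FPKM in resting DKO Treg (log2 difference 2.61 ± 0.40, adjusted p = 0.00114). This was the highest level of Ifih1 in any of the 25 libraries. Stat2 was at 13.5 and 10.1 FPKM in stimulated DKO Treg, against 25.6 and 27.6 FPKM in resting DKO Treg (log2 difference -1.12 ± 0.17, adjusted p = 0.00132), its lowest level in any library. The other genes that fell were Dtx3l (log2 difference -1.40 ± 0.25, adjusted p = 0.0035), Samhd1 (log2 difference -1.10 ± 0.31, adjusted p = 0.036) and Parp14 (log2 difference -0.80 ± 0.23, adjusted p = 0.0416). Of the 38 genes, 28 were lower and 5 higher in stimulated than in resting DKO Treg in both runs, against 60.8% and 25.4% of all genes. The median difference was -0.50 over the 38 genes and -0.19 over all genes. The run block gave 17 called lower and 1 higher (47.4% in all), against 42.1% of all genes. Ifih1 and Stat2 were called with any 1 of the 4 libraries left out, Dtx3l in 3 of the 4 cases, and Samhd1 and Parp14 in 1, and the count was 2 without stimulated DKO Treg replicate 2, 7 without its replicate 1 and 3 without either resting DKO library.

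Between stimulated DKO Treg and stimulated WT Treg, 2 genes were called higher and 4 lower (15.8% in all), against 32.7% of all genes called either way, 16.6% higher and 16.2% lower. Ifih1 was at 47.3 and 52.1 FPKM in stimulated DKO Treg, against 5.57 and 6.52 FPKM in stimulated WT Treg (log2 difference 2.85 ± 0.40, adjusted p = 0.000145). Ly6a was at 858 and 777 FPKM, against 49.1 and 64.1 FPKM (log2 difference 3.84 ± 0.64, adjusted p = 0.000536). Stat2 was at 13.5 and 10.1 FPKM, against 32.1 and 34.2 FPKM (log2 difference -1.43 ± 0.17, adjusted p = 5.62e-05). These 3 genes kept their calls with any 1 of the 4 libraries left out, and the groups did not overlap in any of them. Samhd1 was at 161 and 95.5 FPKM in stimulated DKO Treg, against 252 and 273 FPKM in stimulated WT Treg (log2 difference -1.08 ± 0.31, adjusted p = 0.0155). Parp14 was at 43.9 and 24.1 FPKM, against 57.4 and 65.8 FPKM (log2 difference -0.89 ± 0.23, adjusted p = 0.0086), and Ifi35 also fell (log2 difference -0.64 ± 0.15, adjusted p = 0.00594). The runs differed here. In run 3, 22 of the 38 genes were higher in stimulated DKO Treg and 16 lower, against 50% and 49.6% of all genes. In run 4, 9 were higher and 29 lower, against 49.5% and 50.3% of all genes. Leaving out stimulated WT Treg replicate 2 gave 3 calls, and leaving out any other library gave 4 to 7. Ifi35 was called in 3 of the 4 cases, Parp14 in 2 and Samhd1 in 1.

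The stimulation response of DKO Treg minus that of WT Treg was called for 2 of the 38 genes (5.26%), against 0.971% of all genes. They were Ifih1 (log2 difference 2.96 ± 0.52, adjusted p = 0.0141) and Stat2 (log2 difference -1.18 ± 0.23, adjusted p = 0.0275), with opposite signs. The resting WT Treg of this fit also include runs 1 and 2. With the run block and without the 2 libraries high in markers of other cells, the differences were 2.41 for Ifih1 and -1.065 for Stat2. The run block gave 1 called positive and 4 negative, against 14% of all genes. Of the 10 omissions of 1 library, 6 kept the call of Ifih1 (adjusted p from 0.00674 to 0.102) and 4 that of Stat2 (0.0227 to 0.213). Neither was called, and no other gene was, without any 1 of DKO Treg replicate 2, stimulated DKO Treg replicate 2 or either stimulated WT Treg library. The number of calls was 4 without stimulated DKO Treg replicate 1, 1 without DKO Treg replicate 1 or WT Treg replicate 2, and 2 without any of the other 3 WT Treg libraries.

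The single stimulated libraries of p65KO and c-RelKO Treg have no replicate, so they were set beside stimulated WT Treg of the same run without a test. In the library labelled stimulated p65KO Treg, which went against its label beside its resting pair, 8 of the 38 genes were at least 2-fold higher than in stimulated WT Treg and none 2-fold lower, against 4.86% and 1.90% of all genes. Xaf1 was at 18.8 FPKM in that library and 2.98 FPKM in stimulated WT Treg, and Ly6a at 281 FPKM and 64.1 FPKM. In c-RelKO Treg, 4 genes were at least 2-fold higher than in stimulated WT Treg and none 2-fold lower, against 0.824% and 2.45% of all genes. Ly6a was at 337 FPKM in stimulated c-RelKO Treg and 64.1 FPKM in stimulated WT Treg, Ifi47 at 478 FPKM and 174 FPKM, and Usp18, the protease that removes Isg15 and restrains interferon receptor signalling, at 45.4 FPKM and 19.5 FPKM. Ifih1 was at 8.49 FPKM in stimulated c-RelKO Treg and 7.39 FPKM in the library labelled stimulated p65KO Treg, next to 52.1 FPKM in stimulated DKO Treg of the same run. The high Ifih1 level was seen in libraries labelled as lacking both subunits and in neither of the unreplicated single knockout libraries, of which the p65KO one went against its label. Stimulated WT Tconv, which lack neither subunit, had Ifih1 at 20.5 and 17.9 FPKM. The part of each subunit in the Ifih1 level was not tested.

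In the TAT-Cre set, WT Treg had 7 of the 38 genes at least 2-fold lower and 1 at least 2-fold higher than WT Tconv, against 1.54% and 11% of all genes. Ly6a was at 169 FPKM in WT Treg and 1519 FPKM in WT Tconv, Ifi47 at 213 FPKM and 837 FPKM, and Ifih1 at 10.2 FPKM and 26.5 FPKM. The 1 higher gene was Ly6e, at 344 FPKM in WT Treg and 164 FPKM in WT Tconv. In this set, Treg with NFkB deletion had no gene at a 2-fold difference from WT Treg in either direction, against 1.57% and 0.442% of all genes. Rel was at 38.7 FPKM in that library, against 171 FPKM in WT Treg of the set, next to at most 2.23 FPKM in the libraries labelled as lacking c-Rel, and Rela at 124 FPKM and 125 FPKM. Ifih1 was at 10.7 FPKM with NFkB deletion and 10.2 FPKM in WT Treg, and Stat2 at 16.8 FPKM and 16.3 FPKM. The library labelled FoxP3 del had Foxp3 at 266 FPKM, against 86.7 FPKM in WT Treg, so this value shows no loss of Foxp3. A value over the whole gene does not check a deletion of part of it, and no direction is drawn from that library. It had 4 of the 38 genes at least 2-fold higher than WT Treg and none 2-fold lower, against 2.79% and 0.251% of all genes. Its Usp18, Ifit1, Ifit3 and Rsad2 were at 17.6, 8.41, 4.04 and 3.32 FPKM, and those of WT Treg at 8.01, 3.02, 1.29 and 0.380 FPKM. The B cell sum was 67.3 FPKM in that library and 30.7 FPKM in WT Treg, and the myeloid sum 123 FPKM and 16.3 FPKM, and their part in these levels was not tested.

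The rest of the interferon pathway was read from a list of ligands, receptors, kinases, transcription factors, inhibitors and sensors outside the 39 genes. Type I and type III interferon genes were at most 0.225 FPKM in any library, and Ifng was the 1 of 10 ligands that could be tested. Ifng was at 5804 and 15417 FPKM in stimulated DKO Treg, against 27.3 and 41.3 FPKM in resting DKO Treg (log2 difference 8.09 ± 0.72, adjusted p = 1.3e-05). In stimulated WT Treg it was at 12.5 and 7.72 FPKM, which left stimulated DKO Treg higher (log2 difference 9.77 ± 0.72, adjusted p = 1.03e-06). In stimulated WT Tconv it was at 88.4 and 41.3 FPKM, against 10.5 and 4.98 FPKM in resting WT Tconv (log2 difference 2.89 ± 0.72, adjusted p = 0.0181). In resting c-RelKO Treg it was at 56.7 and 14.2 FPKM, against 5.62, 8.61, 5.66 and 1.75 FPKM in WT Treg (log2 difference 2.34 ± 0.62, adjusted p = 0.0276). Without the 2 libraries high in markers of other cells that difference was 3.30, but c-RelKO Treg is then replicate 1 alone, at 56.7 FPKM. The summed myeloid markers of that library were also above those of WT Treg of its run, and their part in its Ifng level was not tested. The 2 stimulated DKO Treg libraries held the highest Ifng levels of the 25. Of the 6 NK and CD8 T cell markers, Gzma was at 34.6 and 61.98 FPKM in these libraries, against 0.528 and 1.30 FPKM in stimulated WT Treg, and Ncr1 and Klrb1c were also higher in both. Cd8b1 was at 6.83 and 4.29 FPKM in stimulated DKO Treg, against 7.45 and 8.63 FPKM in stimulated WT Treg, and Cd8a and Klre1 overlapped. Their part in the Ifng level was not tested.

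The receptors were lower in stimulated DKO Treg. All 5 receptor genes tested were called lower in stimulated DKO Treg than in stimulated WT Treg, against 32.7% of all genes called either way and 16.2% lower. Ifngr2, the signalling chain of the interferon gamma receptor, was at 7.99 and 5.92 FPKM in stimulated DKO Treg, against 104 and 67.6 FPKM in stimulated WT Treg (log2 difference -3.43 ± 0.51, adjusted p = 0.000237). Ifngr1, the binding chain, was at 173 and 69.8 FPKM, against 679.8 and 461 FPKM (log2 difference -2.34 ± 0.74, adjusted p = 0.0269). Ifnar1 was at 12.9 and 9.06 FPKM, against 48.4 and 49.7 FPKM (log2 difference -2.08 ± 0.24, adjusted p = 3.27e-05). In all 3 the groups did not overlap, and Ifnar2 (log2 difference -1.13 ± 0.28, adjusted p = 0.0065) and Il10rb (log2 difference -1.40 ± 0.28, adjusted p = 0.00177), a chain shared with the type III receptor, were also lower. Resting DKO Treg had 2 of the 5 called lower than resting WT Treg, Ifnar1 (log2 difference -1.01 ± 0.21, adjusted p = 0.00208) and Ifngr2 (log2 difference -1.80 ± 0.44, adjusted p = 0.00683), against 13.6% of all genes.

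**Figure D5:**
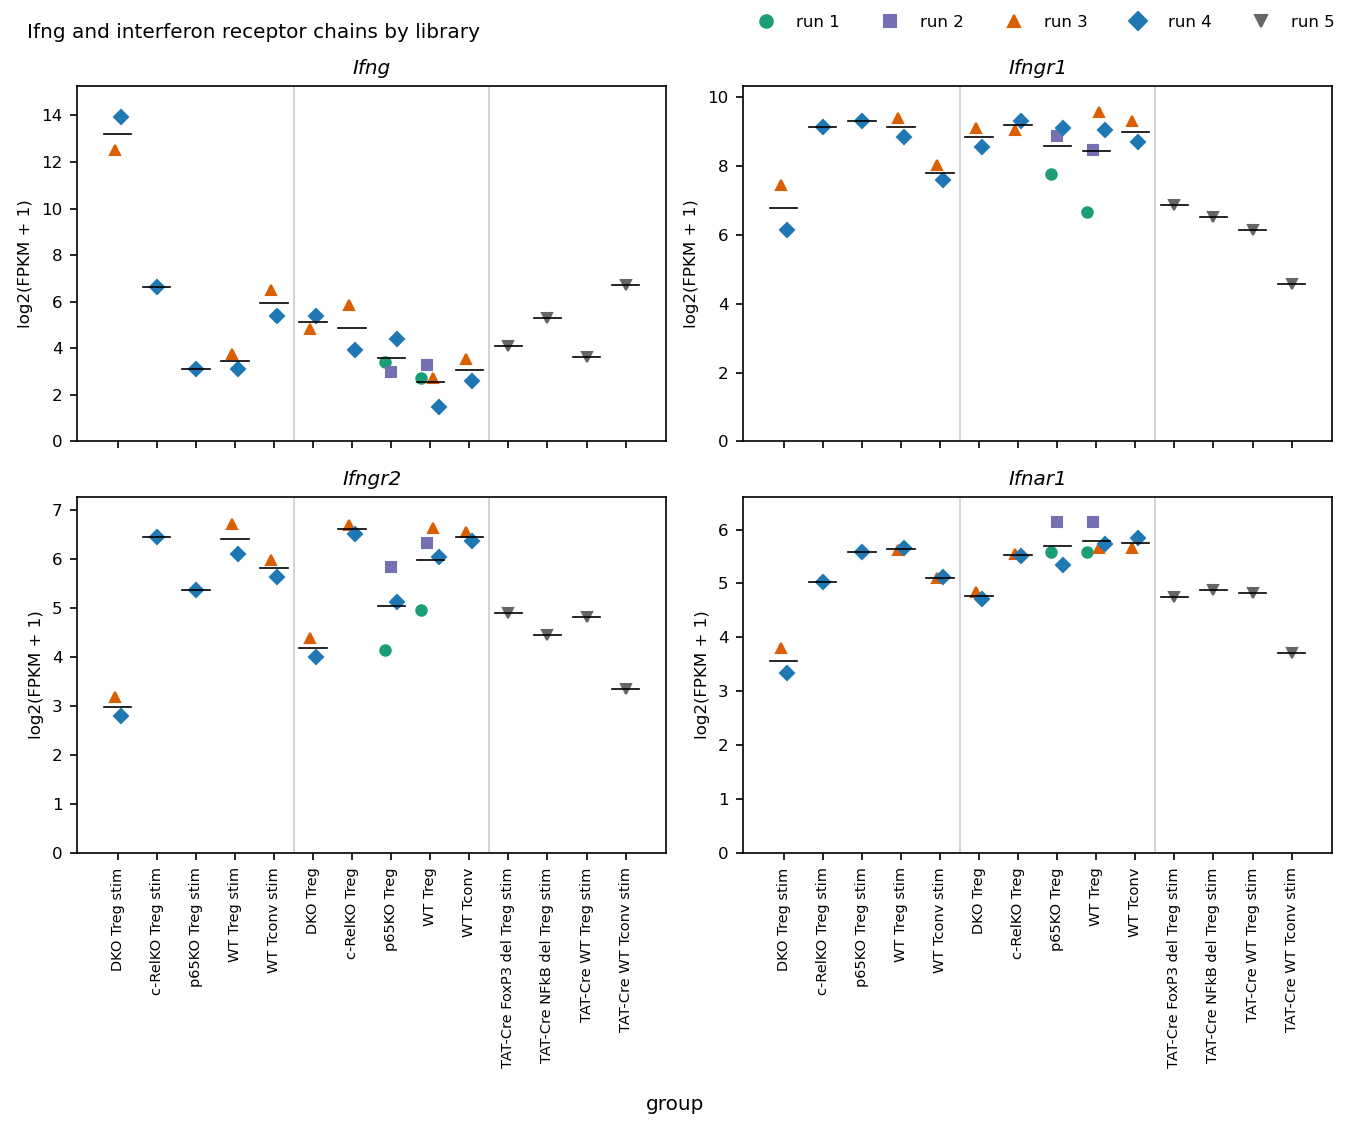
Level of Ifng, Ifngr1, Ifngr2 and Ifnar1 in each library, as log2(FPKM + 1), by group, with points coloured by run and a horizontal line at the mean of each group. Ifng is highest in the 2 stimulated DKO Treg libraries, at 5804 and 15417 FPKM. The 3 receptor genes are low in the same libraries and also in stimulated WT Tconv of the TAT-Cre set.

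Of the transcription factors of the pathway, Irf1 and Irf8 were called higher in stimulated than in resting WT Tconv. Irf1, an activator of interferon-stimulated genes, was at 791 and 693 FPKM in stimulated WT Tconv, against 308 and 248 FPKM in resting WT Tconv (log2 difference 1.42 ± 0.22, adjusted p = 0.000986). Irf8, a related factor best known in myeloid and B cells, was at 282 and 259 FPKM, against 6.71 and 3.24 FPKM (log2 difference 5.57 ± 0.57, adjusted p = 8.49e-05). In stimulated DKO Treg Irf8 was higher than in stimulated WT Treg (log2 difference 3.58 ± 0.57, adjusted p = 0.000401), and Irf1, Irf7 and Irf9 were called lower. Irf9, the DNA-binding subunit of ISGF3, differed by -0.88. Socs1, an inhibitor of JAK kinases and itself induced by interferon gamma, was at 406 and 366 FPKM in stimulated WT Tconv, against 24.96 and 20.5 FPKM in resting WT Tconv (log2 difference 4.03 ± 0.50, adjusted p = 0.000239). Resting WT Treg were already higher in Socs1 than resting WT Tconv (log2 difference 2.91 ± 0.43, adjusted p = 0.000617). Of the 10 nucleic acid sensing genes tested, 2 were called higher in DKO Treg than in WT Treg, Myd88 (log2 difference 0.59 ± 0.12, adjusted p = 0.00225) and Mavs (log2 difference 1.003 ± 0.31, adjusted p = 0.0241), and 4 lower, which were Ikbke, Tlr7, Irak1 and Traf3, against 19.4% of all genes higher and 13.6% lower. Mavs, the adaptor through which Ifih1 signals, was at 20.9 and 16.9 FPKM in DKO Treg, against 16.8, 5.77, 7.32 and 8.58 FPKM in WT Treg.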

How the data were processed

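Per the submitters' processing notes, reads were converted with bcl2fastq, aligned to the mouse build mm9 with TopHat and quantified with Cufflinks, with versions not given in the sources used here. The authors deposited FPKM values per gene with confidence bounds, 1 table per library, each with 23699 entries. Of 23235 symbols, 250 with an entry not marked OK in at least 1 library were left out. Total counts are not in this unit, and 15.4 M to 52.8 M fragments per library are implied by the bounds.

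The log2(FPKM + 1) values were tested in limma (version 3.58.1, R 4.3.3), with 1 mean per group over 21 libraries of 10 groups, 11 residual degrees of freedom, a trended prior and Benjamini-Hochberg adjustment over the 11532 genes that reached 1 FPKM in 2 libraries. The script was tested on simulated data. The TAT-Cre set, 1 library per group, was not tested. Alternatives were a run block, a replicate block, a pseudocount of 0.1, other filters (none, 5 FPKM), size factors, the compared groups alone, each library left out and, added after seeing the data, runs 3 and 4 only and omission of the 2 libraries high in markers of other cells, alone and with the run block. Libraries of the same run deviated together from their group means (mean correlation 0.432 over 51 pairs, lowest 0.036), while libraries with the same replicate number in different runs did not (mean -0.119 over 25 pairs), so replicate numbers were not taken as pairs.

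The 39 genes and the pathway and marker lists were chosen with earlier results of these data known. One gene of the list of transcription factors is not reported here, so no counts over that list are given. Values per library are given for the genes called most often, those with the largest differences (up to 6 per comparison) and those that went against the majority of called genes.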

Additional observations from a re-analysis of the deposited data

Results flagged for a closer look

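Usp18 in WT Treg replicate 1 stood at 36.25 FPKM, against 9.58, 11.8 and 13.8 FPKM in the other 3 resting WT Treg libraries, a gap that is 0.841 of the range, above the 95% critical value of 0.829 for 4 samples. It was 1 of 39 genes so examined, and chance gives about 1 such gap in 20.

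The stimulation response of WT Treg differed from that of WT Tconv for Parp14 by -1.50 (adjusted p = 0.0363, limma), with the stimulated and resting values of Parp14 given above. The response of DKO Treg differed from that of WT Treg for Ifih1 by 2.96 (adjusted p = 0.0141) and for Stat2 by -1.18 (adjusted p = 0.0275).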

How the results depend on the processing

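Counts of the 38 genes called are given for these comparisons in order: WT Treg against WT Tconv (6 in the group-mean fit), p65KO (0), c-RelKO (2) and DKO Treg (7) against WT Treg, DKO against p65KO (2) and c-RelKO Treg (5), stimulated against resting WT Tconv (9), WT Treg (0) and DKO Treg (5), stimulated WT Treg against stimulated WT Tconv (9), stimulated DKO against stimulated WT Treg (6), and the interactions of WT Treg with WT Tconv (1) and of DKO with WT Treg (2). With the run block they were 17, 4, 20, 21, 12, 17, 23, 0, 18, 24, 17, 17 and 5, against 45.8, 8.82, 41.6, 61.2, 46.8, 60.3, 43.1, 0, 42.1, 37, 62.7, 16 and 14% of all genes. Over runs 3 and 4 only they were 13, 3, 17, 21, 8, 14, 23, 0, 12, 21, 15, 8 and 2, against 33.8, 1.14, 24.9, 52.5, 24.9, 50.2, 31.9, 0, 30.9, 25.7, 54.2, 4.56 and 4.25% of all genes. For the settings that follow, no share of all genes is printed, so those counts cannot be set against a background. With the replicate number as a block, although the numbers do not pair the samples, the counts were 21, 0, 12, 19, 21, 13, 17, 24, 11, 19, 13, 24 and 9, and no sign of a called gene changed. With only the compared groups in the fit they were 0, 0, 0, 2, 0, 9, 25, 0, 2, 23, 11, 0 and 0. The other settings moved a few counts by over 1.5 times: a pseudocount of 0.1 gave 1 for c-RelKO Treg. No filter gave 3 for WT Treg against WT Tconv, 1 for c-RelKO Treg, 3 for DKO against c-RelKO Treg and 3 for stimulated DKO Treg. A filter at 5 FPKM gave 1 for c-RelKO Treg, 3 for DKO against c-RelKO Treg and 3 for the WT interaction. Size factors gave 14 for stimulated WT Tconv, 3 for stimulated DKO Treg, 3 for the WT interaction and 1 for the DKO interaction. Omitting the 2 libraries high in markers of other cells gave 1 for c-RelKO Treg, 5 for DKO against p65KO Treg and 0 for the WT interaction. With the run block as well, omitting them gave 19, 1, 23, 27, 13, 19, 26, 0, 21, 27, 19, 19 and 7. Leaving out 1 library at a time gave 0 to 8, 0 to 0, 1 to 4, 1 to 9, 1 to 6, 0 to 2, 1 to 5, 0 to 0, 2 to 7, 3 to 5, 3 to 7, 0 to 3 and 0 to 4. No call reversed its sign under any of these settings, and of the calls of single genes with 1 library left out, 133 held and 133 were lost. The cause was not tested, other than that fits with fewer libraries have fewer degrees of freedom. Values of genes near or under 1 FPKM, among them Ifi44, Mx2, Oas1g, Mx1 and Rsad2, rest on few fragments.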
